A study of Danio rerio with 15 samples.

Results

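A set of 72 genes was lost from zebrafish testes on depletion and had regained less than 50% of its control level in recovering testes. The members were chosen by their mean abundance in CPM (a gene's count scaled to the same total in every library, not corrected for gene length) in each of the 3 groups of the study. A gene was taken when all 3 means lay under 500 CPM, the control mean was at least 10 CPM, the control mean exceeded the depleted mean at least 4-fold with 0.5 CPM added to both, and the recovering mean was under 50% of the control mean. Of 33752 listed genes, 2093 met the conditions on level and loss, and 72 of these, or 3.44%, also met the condition on recovery. Because the rule used the means of all 3 groups, the differences between groups are given here as descriptions, without p-values for members. A gene symbol was found for 58 of the 72 members, and the other 14 are known here by their Ensembl identifier only.

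The samples were testis tissue of adult wild-type zebrafish, labelled control, depletion and recovery, with 5 numbered samples in each group. Counts of 4 control, 5 depleted and 5 recovering testes were analysed; control replicate 2 was not analysed here. How testes were depleted and how long they recovered is not given in the sources used here. The labels do not say whether samples came from separate fish, so p-values measure only the spread between these samples, which may be technical.

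In the zebrafish testis, germ cells develop in cysts that Sertoli cells enclose. Spermatogonia divide, enter meiosis as spermatocytes and become spermatids, which condense their nuclei and build a flagellum. The flagellum is carried by an axoneme of doublet microtubules, along which outer and inner dynein arms generate bending. Leydig cells outside the cysts produce androgens and the peptide hormone Insl3.

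Libraries held between 8123444 and 48646941 counts, and control replicate 5 was the deepest. Genes of meiotic cells on a fixed list were mostly lower in depleted testes. Of 24 tested genes of meiotic spermatocytes, 18 were called lower in depleted than in control testes (edgeR quasi-likelihood test, adjusted p under 0.05), against 32.1% of all genes. In recovering against control testes 0 were called, where 0.0329% of all genes were called lower. There 1 was lower at an unadjusted p under 0.05, and DESeq2 also called 0. The summed level of the 24 genes ranged from 8673 to 9800 CPM in control, from 122 to 3107 CPM in depleted and from 5478 to 8923 CPM in recovering libraries. Most genes on lists of somatic cells moved the other way. On the Sertoli, Leydig, leukocyte, erythrocyte and endothelial and stromal lists 0 genes met the conditions on level and loss. These lists could thus hold no member. On the epithelial list, 6 of 8 tested genes were called higher in depleted testes, but 2 genes met the conditions on level and loss. These 2 genes stood at 304% and 335% of control in recovering testes and were not members. Of 8 Leydig cell genes, 8 were called higher in depleted and 2 in recovering than in control testes, and their summed level was 954 to 1656 CPM in control, 1285 to 12651 CPM in depleted and 3163 to 4693 CPM in recovering libraries. Of 11 Sertoli cell genes, 8 were called higher and 1 lower in depleted testes. Their summed levels were 1996 to 2830 CPM in control, 5482 to 9565 CPM in depleted and 3268 to 4953 CPM in recovering libraries. The share of all genes called higher is not given here. Values are shares of a library from a tissue of mixed cells, so fewer cells of a type and less RNA per cell cannot be told apart. The part of the changing mix of cells in the levels of the 72 members was not tested.

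The members were the low tail of the genes lost in depletion. Over the 72 members the median depleted level was 10.7% of control and the median recovering level was 44.9% of control. Over the 2021 other lost genes the medians were 14.7% and 73.9%, and 593 of those genes, or 29.3%, had returned to at least 80% of control. Of the members, 35 lay between 45% and 50% of control, 16 between 40% and 45%, 15 between 30% and 40%, and 6 under 30%. A further 179 lost genes lay between 50% and 60%. The limit of 50% thus fell on a continuous slope and separated no distinct group.

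**Figure D1:**
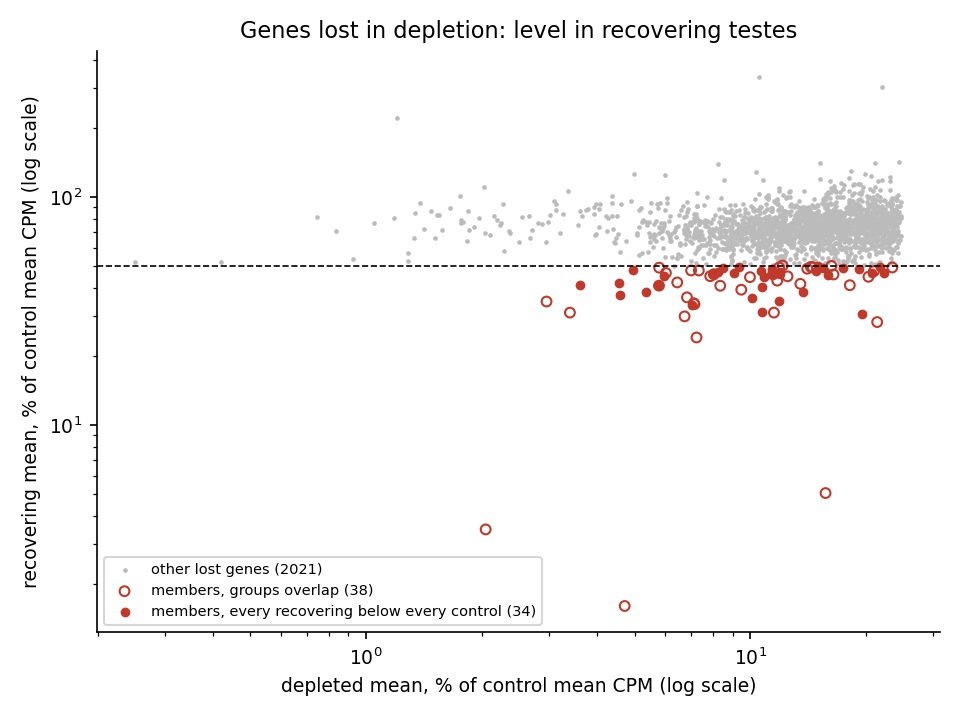
Each point is 1 of 2093 genes lost in depletion, with the depleted mean on the horizontal and the recovering mean on the vertical axis, both as percent of the control mean CPM on log scales. The 72 members (red) lie under the dashed line at 50%, directly below the cloud of 2021 other genes, and 3 members lie far below the rest at 1.61%, 3.48% and 5.03%.

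Genes on both sides of the limit had like values. Just inside it, si:ch1073-340i21.1 and TRMU, the enzyme that thiolates mitochondrial tRNAs, both lay within 0.05 of a percentage point of 50%. TRMU stood at 43.4, 36.8, 37.8 and 57.2 CPM in the control libraries (replicates 1, 3, 4 and 5), at 9.97, 8.05, 4.14, 5.41 and 5.37 CPM in depleted replicates 1 to 5 and at 24.01, 23.1, 26.3, 21.8 and 14.2 CPM in recovering replicates 1 to 5. Every recovering library was below every control library for this gene. Just outside the limit, lrrc3cb had a control mean of 13.7 ± 2.16 CPM (SD, n = 4) and a recovering mean of 6.84 ± 1.67 CPM (SD, n = 5), just above the limit. MASP1, a serine protease of the complement lectin pathway, followed at 50.3% and si:ch211-226m16.3 at 50.5%.

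Loss was near complete in some depleted testes and partial in others. The median level of the members, as percent of their control mean, was 16.9% and 19.98% in depleted replicates 1 and 2, and 3.76%, 3.59% and 1.43% in replicates 3, 4 and 5. In depleted replicate 5, 32 of the 72 members were at or under 3 counts, against 4 in replicate 1 and 1 in replicate 2. The highest depleted value belonged to replicate 1 or 2 for 68 members (94.4%), and for 98.5% of the other lost genes. The residue in replicates 1 and 2 was thus also present in the other lost genes, whose medians were 22.9% and 31.9% of control in these libraries.

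Recovering testes were more alike. The median level of the members was 35.9%, 46.5%, 42.6%, 32.4% and 44.97% of control in recovering replicates 1 to 5, and that of the other lost genes 59.1%, 77.2%, 89.0%, 67.7% and 72.8%. The lowest recovering value belonged to replicate 1 or 4 for 46 members (63.9%) and for 74.6% of the other lost genes. Among the members, 59 were under 50% of control in recovering replicate 1 and 59 in replicate 4, against 39 in replicate 2.

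**Figure D2:**
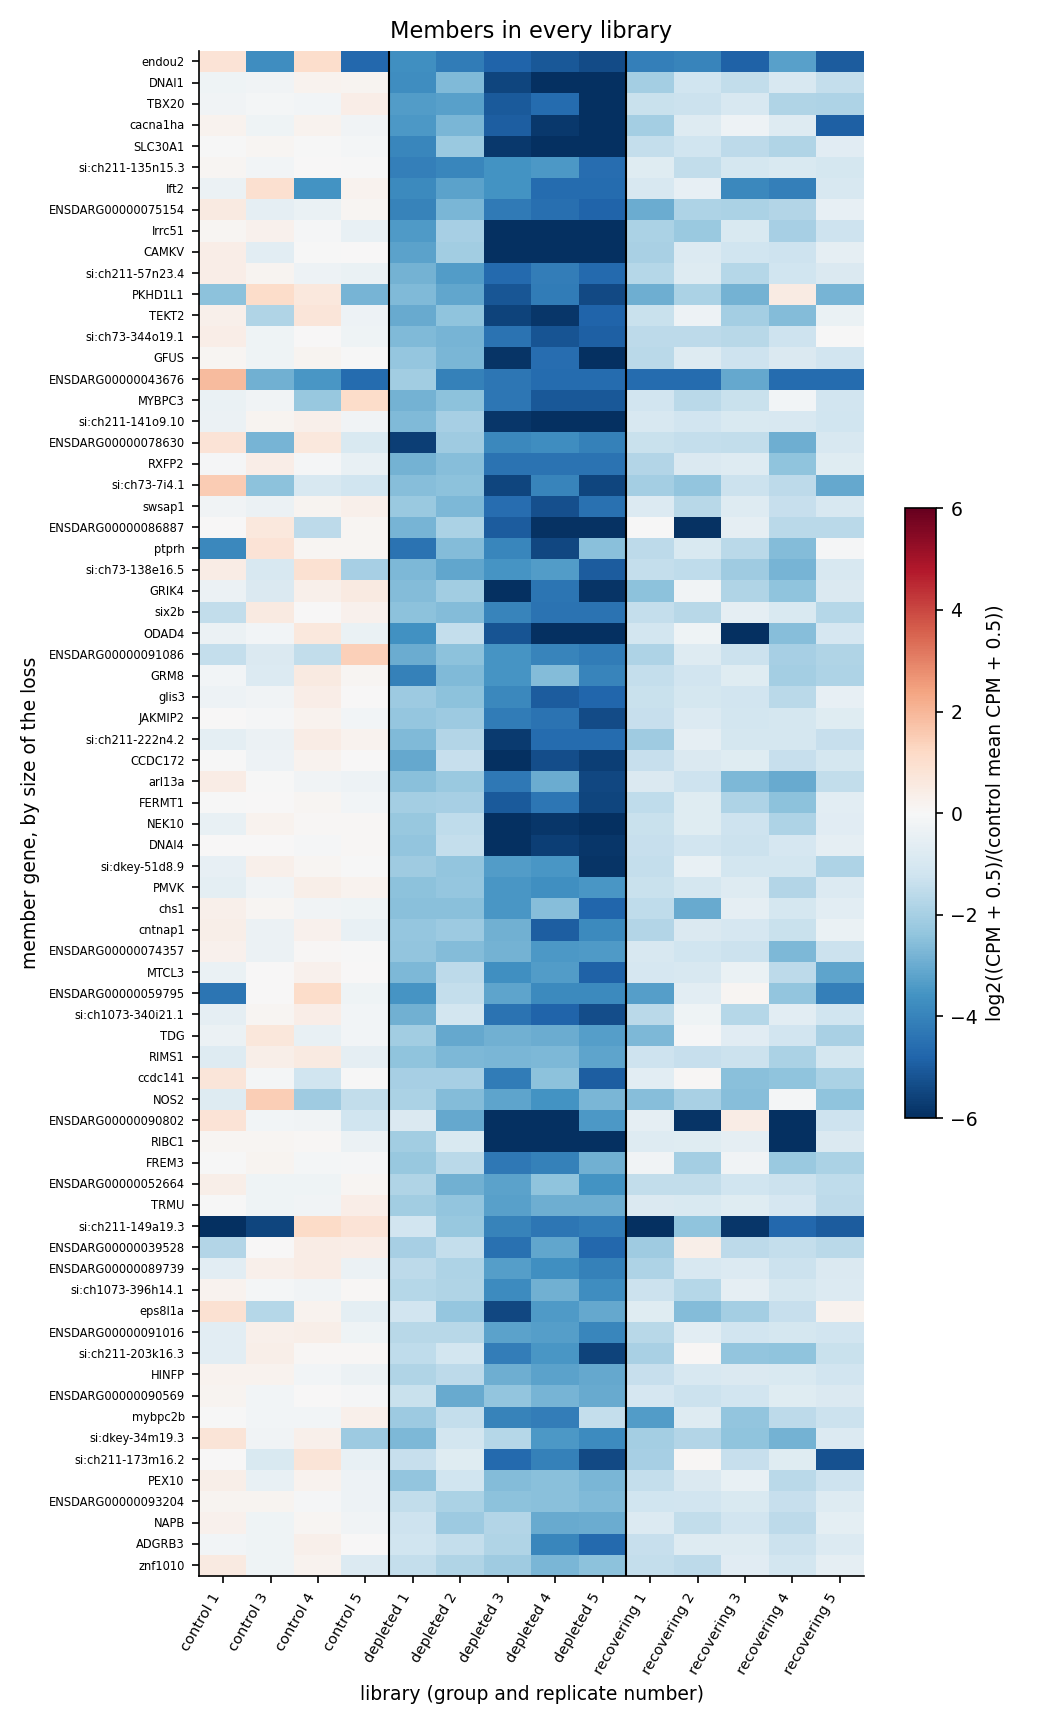
Rows are the 72 members ordered by the size of the loss, columns are the 14 libraries, and colour gives log2 of the library's CPM plus 0.5 over the control mean plus 0.5 (blue is below the control mean, capped at 6). Depleted replicates 3 to 5 are darkest, and recovering libraries are mostly pale blue. Some recovering values exceed the control mean, such as PKHD1L1 in recovering replicate 4, and endou2 is far below it in every recovering library. Isolated dark cells mark single libraries that almost lack a gene.

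In the fit across all genes, 66 of the 71 members tested were called lower in depleted than in control testes (edgeR quasi-likelihood test, Benjamini-Hochberg adjusted p under 0.05), against 32.1% of all genes tested and 97.6% of the other lost genes. Between recovering and depleted testes, 45 of 71 were called higher, against 28.7% of all genes and 93.3% of the other lost genes. Between recovering and control testes, 1 of 71 was called lower, against 0.0329% of all genes and 0.0495% of the other lost genes. All 71 had a negative fold change, a sign that the limit on the recovering mean all but fixed. The median log2 fold change of the members on the scale of the fit was -2.89 in depleted and -1.08 in recovering against control testes, where the median of all genes was 0.03 and -0.01. The rule used the means of all 3 groups, so the counts describe the members and support nothing further. The count for recovering against control testes depended on the samples in the fit. With the depleted libraries left out of the model, 30 members were called lower, against 1.85% of all genes in that fit. ENSDARG00000043676 was removed by the filter on low counts and was not tested.

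The member called in the full fit was RIMS1, which encodes a scaffold of the presynaptic active zone, named here after its values were seen. No member was called with the replicate number as a block, without the filter on low counts, or in 8 of the 9 fits that left out 1 control or recovering library; edgeR placed 20 to 32 members lower at an unadjusted p under 0.05 in these fits. RIMS1 stood at 17.6, 39.1, 43.8 and 20.8 CPM in the control libraries, at 5.29, 4.204, 4.14, 4.33 and 2.88 CPM in the depleted libraries and at 12.5, 11.2, 12.2, 7.896 and 14.4 CPM in the recovering libraries. The depleted libraries were close together, unlike those of most members, and no value of one group overlapped that of another.

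Without overlap, every recovering library lay below every control library for 34 of the 72 members, where 7.91% of all genes tested and 25.9% of the other lost genes did so. Every depleted library lay below every control library for 57 members (79.2%), against 35.6% of all genes and 97.2% of the other lost genes. Every depleted library lay below every recovering library for 29 members, against 25.6% of all genes and 89.9% of the other lost genes. The rule fixed the control mean above the depleted and recovering means. The counts against control libraries thus only show how often the spread within groups was wider than the difference between them. It set no order between depleted and recovering means, and the depleted mean was the higher for si:ch211-149a19.3 and ENSDARG00000043676. The count of depleted below recovering libraries thus also depends on how far each gene rose.

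Because the choice used every library, the rule was also applied 14 times with 1 library left out, and the level of the genes so chosen was read in the library that had no part in their choice. In the left-out recovering library the median level was 38.6%, 60.1%, 58.1%, 45.7% and 57.9% of control for replicates 1 to 5. The other lost genes chosen without the same library stood at 58.97%, 77.1%, 89.0%, 67.5% and 72.5%. The members were below the other lost genes in 5 of 5 recovering libraries, yet in 3 of them their median was above the limit of 50%. The control mean under these percentages still took part in the choice, which favours genes with high control values. The percentages of the members thus lean low, and their order against the other lost genes is only a description. The share of the chosen genes under 50% in the left-out recovering library ranged from 27.8% to 70.0%. Left-out control libraries behaved alike in the opposite sense, with medians of 71.3%, 77.0%, 84.7% and 76.1% of the remaining controls for replicates 1, 3, 4 and 5, where the other lost genes stood between 91.6% and 105%. Part of the distance between control and recovering levels of the members was thus absent from libraries that the choice did not use. In left-out depleted libraries the median was between 1.42% and 20.6%.

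**Figure D3:**
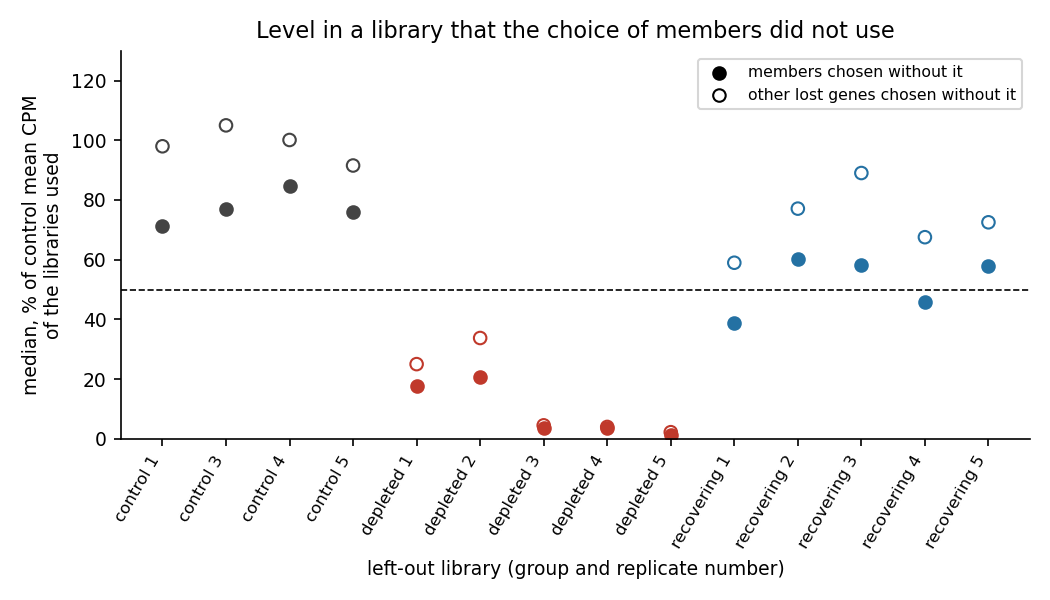
Each column is 1 left-out library, with the median level of the members chosen without it (filled) and of the other lost genes chosen without it (open), as percent of the control mean CPM of the libraries used. Filled points lie below open points in all control and recovering libraries, and recovering replicates 2, 3 and 5 lie above the dashed line at 50%.

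Members differed in how far they rested on single libraries. Of the 72 members, 19 were chosen in all 14 lists with 1 library left out, and every recovering library lay below every control library for 11 of these 19. The 19 included DNAI1, TBX20, SLC30A1, lrrc51, GFUS, ODAD4, arl13a, FERMT1, GRIK4, six2b, RIMS1, endou2, si:ch211-57n23.4, si:ch211-203k16.3 and ENSDARG00000040141, and 4 genes without a symbol. Their median recovering level was 38.4% of control. The lists share most libraries and the same limits, so genes far past the limits stay in, also uneven ones such as endou2 and ODAD4. The lower median follows in part from this.

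Genes of the sperm flagellum and of cilia are described here as one group by known role, with no test of their share. The first was DNAI1 (ENSDARG00000038788), an intermediate chain of the outer dynein arm. It stood at 259, 273, 367 and 348 CPM in control replicates 1, 3, 4 and 5, at 23.1, 48.9, 6.32, 2.16 and 2.78 CPM in depleted replicates 1 to 5, and at 74.7, 135, 111, 160.3 and 117 CPM in recovering replicates 1 to 5. The 3 groups did not overlap, and the means were 312 ± 53.3, 16.7 ± 19.9 and 119.6 ± 31.6 CPM (SD, n = 4, 5 and 5). The depleted mean was 5.34% and the recovering mean 38.4% of control, a log2 ratio of depleted to control of -4.18 with 0.5 CPM added.

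DNAI4 encodes another axonemal dynein intermediate chain. Its control values were close together, at 45.8, 45.7, 42.9 and 48.0 CPM, and its recovering values of 17.2, 20.4, 18.6, 22.3 and 31.3 CPM all lay below them. In depleted testes the values were 8.49, 16.6, 0.218, 0.433 and 0.298 CPM, so that replicates 1 and 2 held nearly all of what was left.

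ODAD4 is a subunit of the complex that docks outer dynein arms on the doublet microtubule. Control libraries held 59.5, 68.1, 120.2 and 57.3 CPM and depleted libraries 5.66, 28.1, 1.63, 0.649 and 0.0994 CPM. Recovering libraries held 35.6, 63.9, 0, 12.7 and 37.3 CPM, and the 0 in replicate 3 is 0 counts in a library of 25035915, which allows up to 0.120 CPM at 3 counts. Recovering replicate 2 lay within the control range, so the groups overlapped and the recovering mean of 39.2% of control averages unlike testes.

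TEKT2 and RIBC1 encode proteins that line the inside of doublet microtubules, a tektin and a protein of the RIB43A family. RIBC1 stood at 216, 215, 209.6 and 155 CPM in control and at 47.1, 104, 2.07, 0.649 and 0.398 CPM in depleted libraries. In recovering libraries it stood at 117, 119, 137, 0.3201 and 110.2 CPM, with 3 counts in replicate 4 where the other libraries were close together. Without recovering replicate 4 RIBC1 no longer met the rule, and its log2 ratio of recovering to control went from -1.03 to -0.72. TEKT2 varied more among controls, at 34.9, 7.54, 46.2 and 22.3 CPM, and its recovering values of 10.8, 22.4, 6.27, 4.16 and 20.6 CPM overlapped them. Its depleted values were 2.95, 4.805, 0.109, 0 and 0.497 CPM. The log2 ratio of recovering to control of TEKT2 was -1.08, and -0.73 without control replicate 4.

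The small GTPase arl13a, a relative of the ciliary Arl13b, had the lowest recovery of this group at 31.4% of control. Its values were 58.7, 42.6, 37.4 and 34.5 CPM in control, 7.14, 8.77, 1.74, 5.08 and 0.497 CPM in depleted and 23.6, 18.2, 6.23, 4.802 and 15.1 CPM in recovering libraries. Recovering replicates 3 and 4 lay within the depleted range, while every recovering value was below every control value.

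**Figure D4:**
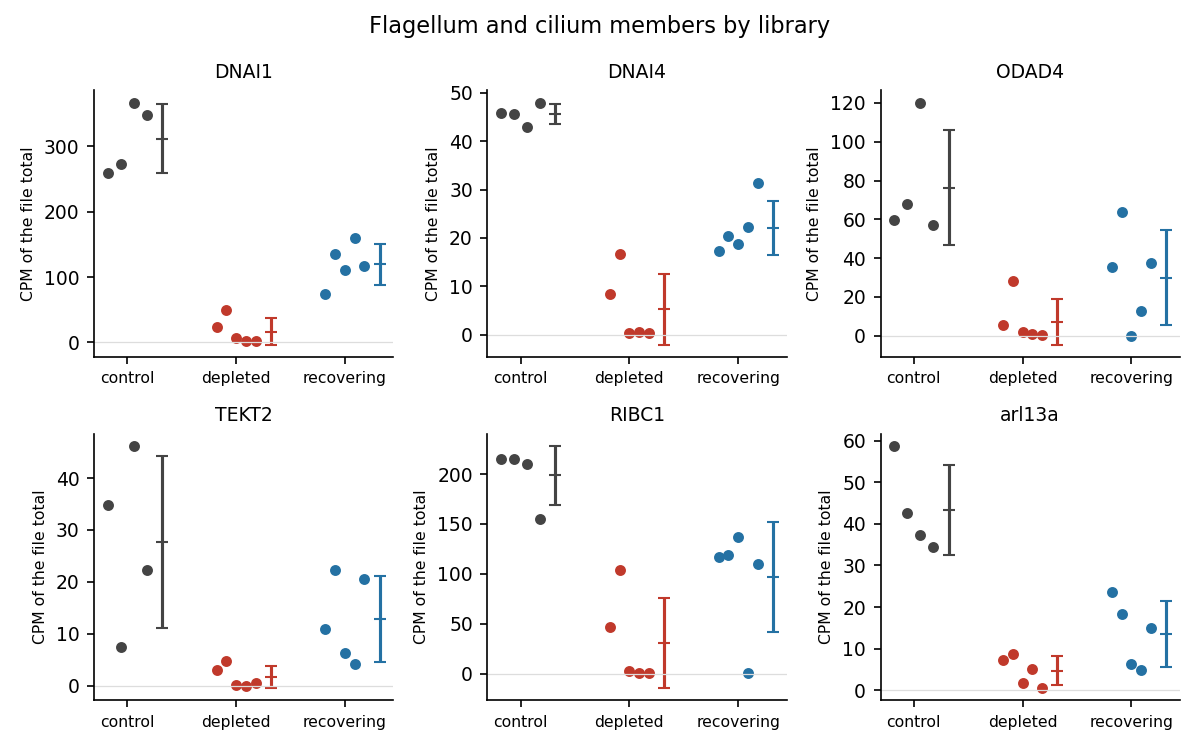
Points are CPM of single libraries of control, depleted and recovering testes for 6 flagellum and cilium genes, and the bars beside them give the mean and SD. Recovering values sit between the groups for DNAI1 and DNAI4, whereas ODAD4 in recovering replicate 3 and RIBC1 in recovering replicate 4 drop to 0 and 0.320 CPM.

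Further members are known from cilia or sperm tails of other species, a grouping made after the values were seen. NEK10, a kinase of motile cilia in human airways, stood at 75.03, 116, 108 and 107 CPM in control and 39.4, 61.4, 42.98, 27.6 and 62.1 CPM in recovering libraries without overlap. CCDC172, a coiled-coil protein of the rat sperm tail, stood at 109.6, 89.1, 127 and 113 CPM in control and 41.5, 59.6, 65.6, 42.3 and 51.8 CPM in recovering libraries, again without overlap. Both were highest in replicate 2 among depleted testes, at 34.6 and 41.1 CPM.

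Most other axonemal genes were not members. Of the 90 listed genes of dynein arms, their assembly factors and the axoneme, 70 met the conditions on level and loss. Of these, 4 were members, namely DNAI4, TEKT2, ODAD4 and RIBC1, where 72 of all 2093 lost genes, or 3.44%, were members. Whether axonemal genes were more frequent among the members than among all lost genes was not tested. DNAI1 was not matched, since the list spells it otherwise. Among 87 tested, 83 were called lower and 1 higher in depleted than in control testes by edgeR (adjusted p under 0.05), against 32.1% of all genes called lower. In recovering against depleted testes 78 were called higher, against 28.7% of all genes. In recovering against control testes 0 were called in either direction. Over all genes 0.0329% were called lower there, so the 0 does not show a full return. At an unadjusted p under 0.05 the last comparison gave 0 lower and 1 higher, and DESeq2 called 0. The 70 lost axonemal genes recovered to a median of 74.0% of control, ranging from 39.2% to 87.8%. The nearest axonemal gene outside the set was LRGUK, a guanylate kinase domain protein needed for sperm tail assembly in mouse, with a control mean of 186 CPM and a recovering mean of 102 CPM, or 54.9%. Of 36 listed genes of intraflagellar transport and the BBSome, 23 were lost in depletion, with a median recovery of 73.7%, and arl13a was the one member. Of the 12 spermatogonial, 24 meiotic and 30 spermatid and sperm genes on the fixed lists, 3, 18 and 21 met the conditions on level and loss. None of these was a member. At the share of 3.44% over all lost genes few would be members, so their absence says little. The lost genes of these lists recovered to medians of 78.7%, 74.4% and 70.9% of control.

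The remaining members were sorted by known role after their values were seen, with no list or test behind the groups. Among channels and receptors, cacna1ha took the most counts. It encodes the pore-forming subunit of a T-type calcium channel. Control libraries held 432, 306, 422 and 319.7 CPM, depleted libraries 33.98, 54.8, 11.4, 6.28 and 3.88 CPM and recovering libraries 89.8, 218, 299, 214 and 12.1 CPM. Recovering replicate 5 lay within the depleted range, at 5.64% of the median of its group, and replicate 3 lay just under the lowest control. The log2 ratio of recovering to control was -1.15 with all libraries and -0.85 without recovering replicate 5, where the gene no longer met the rule. RXFP2 (ENSDARG00000019660) is the receptor of Insl3 in mammals. It held 9.81, 13.7, 9.804 and 7.297 CPM in control, 0.985, 1.32, 0, 0 and 0 CPM in depleted and 2.65, 5.42, 5.67, 1.49 and 5.996 CPM in recovering libraries, with 0 counts in depleted replicates 3, 4 and 5 and no overlap between recovering and control values. The fixed Leydig list holds insl3, the gene of the RXFP2 ligand in mammals. Mean levels of insl3 were 702 CPM in control, 3464 CPM in depleted and 2192 CPM in recovering testes. On the TMM scale of the fit, which differs from that of these means, the log2 fold change of insl3 was 2.68 in depleted against control testes (edgeR adjusted p = 0.00362). A second gene of the symbol RXFP2 is given below, and which of them binds Insl3 in zebrafish was not tested.

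Glutamate receptors were represented by GRIK4 of the kainate class and GRM8 of the metabotropic class, at 40.8% and 36.3% of control in recovering testes. Both overlapped with control values in at least 1 recovering library. The adhesion receptor ADGRB3 lay near the limit at 49.4% and showed no overlap, with 15.3, 14.04, 21.3 and 17.2 CPM in control and 6.12, 9.72, 9.87, 6.72 and 9.47 CPM in recovering libraries. The secreted Nodal inhibitor lft2 was uneven in every group. It stood at 9.12, 23.9, 0.521 and 14.04 CPM in control and at 5.89, 8.36, 0.359, 0.213 and 5.86 CPM in recovering libraries, so that control replicate 4 and recovering replicates 3 and 4 were at the level of depleted testes, which held 0 to 0.841 CPM. Its log2 ratio of recovering to control went from -1.42 to -0.86 without control replicate 3.

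Some members encode transcription factors or proteins acting on DNA. TBX20, a T-box factor known from heart development, held 35.1, 37.1, 35.7 and 53.6 CPM in control, 3.57, 3.72, 0.762, 1.19 and 0 CPM in depleted and 15.9, 16.3, 20.6, 11.1 and 10.97 CPM in recovering libraries. Its 3 groups did not overlap, and the recovering mean of 14.98 ± 4.06 CPM (SD, n = 5) was 37.1% of the control mean. HINFP, an activator of histone H4 genes, showed the like order, with 110.4, 109, 83.03 and 74.8 CPM in control, 26.7, 31.4, 12.1, 9.63 and 10.6 CPM in depleted and 35.7, 47.9, 52.2, 50.04 and 42.1 CPM in recovering libraries. The zinc finger factor glis3 held 20.9, 22.2, 34.9 and 26.4 CPM in control and 10.2, 12.4, 11.6, 8.22 and 18.1 CPM in recovering libraries without overlap. For swsap1, which takes part in meiotic recombination in mouse, control values of 30.3, 27.4, 39.4 and 43.1 CPM stood against recovering values of 19.5, 10.7, 20.3, 13.3 and 17.99 CPM. The homeobox factor six2b, the DNA glycosylase TDG and the zinc finger gene znf1010 recovered to 42.2%, 48.4% and 49.04% of control, each with overlap between recovering and control libraries. For TDG, recovering values ran from 15.6 to 98.5 CPM and control values from 75.2 to 166 CPM.

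Enzymes and transporters included SLC30A1 (ENSDARG00000053896), which exports zinc from cells. It held 68.99, 75.8, 67.6 and 63.8 CPM in control, 4.06, 14.5, 0.762, 0.433 and 0.0994 CPM in depleted and 25.6, 30.3, 22.7, 19.5 and 42.99 CPM in recovering libraries. No 2 groups overlapped, and the recovering mean of 28.2 ± 9.15 CPM (SD, n = 5) was 40.9% of the control mean of 69.02 ± 5.02 CPM (SD, n = 4). GFUS (ENSDARG00000039669), the last enzyme in the synthesis of GDP-fucose, held 207, 157, 211 and 188 CPM in control, 37.8, 27.99, 2.72, 7.46 and 0.597 CPM in depleted and 62.2, 112, 79.7, 103 and 86.4 CPM in recovering libraries, and its groups did not overlap either. PMVK of the mevalonate pathway and the peroxisome biogenesis factor PEX10 recovered to 46.1% and 47.3% of control, PEX10 with overlap. The chitin synthase chs1 stood at 25.8, 23.2, 17.9 and 17.3 CPM in control and 7.04, 2.11, 14.3, 9.92 and 13.4 CPM in recovering libraries.

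Cell adhesion, scaffold and vesicle genes of the set are best known from other tissues. FERMT1, an integrin activator of epithelia, held 40.02, 41.7, 43.4 and 36.5 CPM in control, 9.36, 9.61, 0.762, 1.51 and 0.398 CPM in depleted and 13.8, 24.3, 10.7, 7.04 and 25.6 CPM in recovering libraries. Its control values were close together and no recovering value reached them. JAKMIP2, a coiled-coil protein of neurons, and NAPB, a factor of vesicle fusion, showed no overlap either and recovered to 49.3% and 46.4% of control. Recovering values of JAKMIP2 were 10.7, 15.9, 13.02, 13.6 and 17.1 CPM against 28.6, 27.5, 32.9 and 25.1 CPM in control libraries. The pseudokinase CAMKV (ENSDARG00000005141) recovered to 47.6%, with recovering replicate 5, at 87.2 CPM, above control replicate 3, at 81.3 CPM.

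Genes of muscle myosin filaments were also among the members. The fast muscle myosin-binding protein mybpc2b held 19.3, 17.4, 17.8 and 25.02 CPM in control, 3.94, 6.97, 0.762, 0.649 and 7.16 CPM in depleted and 1.501, 11.3, 3.44, 6.296 and 7.97 CPM in recovering libraries. Recovering and depleted values overlapped widely, and the recovering mean was 30.7% of control. Its cardiac relative MYBPC3 was uneven among controls, at 12.2, 13.8, 2.95 and 35.9 CPM. A list of 9 matched muscle genes, added after the values were seen, summed to 5.94 to 7.64 CPM in control, 3.35 to 246 CPM in depleted and 3.12 to 18.1 CPM in recovering libraries. Its genes did not move together. The fast muscle myosin myhz1.1 had means of 2.31, 0.292 and 0.529 CPM in control, depleted and recovering testes. On the log2 scale of the fit, which uses TMM scaling, it fell in depleted testes by 2.43 (edgeR adjusted p = 0.00581). Means of the related myhz2 were 1.601, 0.290 and 0.746 CPM, and its lower level in depleted testes did not pass the test (edgeR adjusted p = 0.0681). The creatine kinases ckma and ckmb were higher in depleted testes by 4.82 and 6.43 on the log2 scale of the fit (edgeR adjusted p = 0.0122 and 0.0106). The other 5 genes had control means of 0.123 to 0.783 CPM and were not tested. The part of muscle tissue in the levels of both genes was not tested.

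Of the members that recovered least, several rested on high values in few controls. The endoribonuclease-like gene endou2 showed the largest loss of the set, a log2 ratio of -4.49, and a recovering mean of 3.48% of control. Its control values were 35.8, 1.04, 42.3 and 0.267 CPM, so that replicates 3 and 5 lay within the depleted range of 0 to 1.11 CPM, and its recovering values were 0.693, 0.829, 0.1997, 1.601 and 0.136 CPM. For si:ch211-149a19.3 the control values were 0.114, 0.812, 131 and 107 CPM, against 26.6, 11.8, 3.27, 2.49 and 2.78 CPM in depleted and 0.346, 10.9, 0.559, 1.81 and 1.36 CPM in recovering libraries. Controls of this gene fell into a high and a near-zero pair, and its depleted mean exceeded its recovering mean. ENSDARG00000043676 held 45.95, 1.16, 0.607 and 0 CPM in control libraries, and control replicate 1 alone carried it past the limit of 10 CPM.

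Other low members were also uneven. Control replicate 1 carried si:ch73-7i4.1, at 65.5, 3.71, 11.3 and 9.44 CPM, and the recovering values were 5.08, 3.92, 8.79, 7.15 and 2.25 CPM. Its log2 ratio of recovering to control went from -1.95 to -0.54 without control replicate 1. For si:dkey-34m19.3, control values of 226, 114, 163 and 29.1 CPM stood against recovering values of 32.1, 38.6, 24.3, 18.1 and 74.8 CPM and depleted values of 19.8, 61.3, 40.3, 11.7 and 9.34 CPM. Control replicate 5 of this gene lay within the depleted range. The gene ENSDARG00000040141 stood at 21.3, 7.78, 29.6 and 3.47 CPM in control and 5.54, 5.05, 3.15, 1.81 and 7.699 CPM in recovering libraries, where control replicate 5 was below 3 of the recovering libraries.

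Not all members of high loss were uneven among controls. The leucine-rich repeat gene lrrc51 held 174, 195, 154 and 118 CPM in control, 14.7, 39.9, 1.74, 0.216 and 0 CPM in depleted and 42.2, 34.2, 84.6, 40.5 and 66.8 CPM in recovering libraries, with every recovering below every control value. The genes si:ch211-135n15.3 and si:ch211-141o9.10 were lower than every control in all 5 recovering libraries. Both lay near the limit, with a log2 ratio of recovering to control of -1.03. With TMM-scaled CPM the ratio was -0.95 for both, just above the limit of 50%. The first held 27.7, 22.5, 26.03 and 25.1 CPM in control and 14.9, 8.66, 11.8, 13.3 and 12.1 CPM in recovering libraries. For the second the recovering values were 108, 96.4, 114, 110.3 and 92.5 CPM, a narrower range than that of its controls, 166, 237, 263 and 186 CPM. Close to the limit, eps8l1a, of a family of actin regulators, recovered to 49.8% with values of 15.8, 3.92, 6.03, 10.03 and 30.7 CPM, which overlapped control values of 50.6, 7.78, 30.7 and 17.6 CPM. Its log2 ratio of recovering to control went from -0.98 to -0.48 without control replicate 1.

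Among members given only by a clause so far, PKHD1L1 and NOS2 were uneven among controls. PKHD1L1, a large membrane protein, held 4.11, 53.03, 38.6 and 3.12 CPM in control and 2.77, 6.18, 3.08, 35.2 and 3.202 CPM in recovering libraries, so that controls 1 and 5 and 4 of 5 recovering libraries were at a like low level. NOS2 (ENSDARG00000026925), a nitric oxide synthase, held 6.16, 31.1, 2.08 and 3.47 CPM in control and 1.39, 2.41, 1.398, 9.82 and 1.64 CPM in recovering libraries. Control values were closer together for the matrix protein FREM3, at 11.2, 12.8, 10.3 and 10.8 CPM in control and 9.58, 2.41, 9.67, 2.03 and 2.66 CPM in recovering libraries, and MTCL3, at 14.8, 20.2, 23.9 and 20.3 and 9.58, 9.79, 14.9, 6.402 and 1.77 CPM, where 1 recovering library reached the lowest control. The receptor-type phosphatase ptprh was also uneven among controls, at 1.368, 46.65, 28.81 and 28.82 CPM. Control replicate 1 of this gene lay within the depleted range of 0.108 to 4.275 CPM. The genes ptprh, cntnap1, ccdc141, si:ch73-344o19.1, si:ch211-222n4.2, si:dkey-51d8.9 and si:ch1073-396h14.1 recovered to 44.5% to 49.03% of control. Of these, only si:ch1073-396h14.1 showed no overlap between recovering and control libraries. The 14 members without a symbol had control means of 10.3 to 68.7 CPM and recovered to 1.61% to 49.4% of control, with a median of 43.6%. Every recovering library lay below every control library for 5 of these 14 and for 29 of the 58 members with a symbol.

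Spread within groups was wider among the members than among the other lost genes. The coefficient of variation (SD as percent of the mean) had a median of 27.8% among the members and 14.2% among the other lost genes in control testes. In recovering testes it was 42.8% and 23.1%. In depleted testes it was 101% and 103%. A coefficient above 50% among controls was found for 21 members (29.2%) and 68 of the other lost genes (3.365%). The members were also lower in CPM, with a median control level of 27.8 against 66.3 CPM. The rule used group means, which a single high control or low recovering library can shift, so the choice itself favours genes uneven in these groups. The parts of the choice and of the lower level in the wider spread were not tested.

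A recovering library under 10% of the median of its group occurred for 7 members (9.72%) and for 12 of the 2021 other lost genes (0.594%). Among controls such a library occurred for 6 members (8.33%) and for 14 of the other lost genes (0.693%). A nearly empty recovering library also lowers the mean that the rule used. The 7 members with one were cacna1ha in replicate 5, lft2 in replicates 3 and 4, ODAD4 in replicate 3, RIBC1 in replicate 4, si:ch211-173m16.2 in replicate 5, ENSDARG00000086887 in replicate 2 and ENSDARG00000090802 in replicates 2 and 4. ENSDARG00000090802 held 25.5, 0.151, 51.3, 0 and 15.7 CPM in recovering and 67.8, 33.9, 32.97 and 16.4 CPM in control libraries, and ENSDARG00000086887 held 29.3, 0, 20.1, 9.28 and 9.27 CPM in recovering libraries. The low values were spread over recovering replicates 2, 3, 4 and 5 and no library held more than 3 of them. For these members the recovering mean averaged 1 or 2 libraries that nearly lacked the gene with others that held it.

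For 10 members the reference gives the same symbol to a second gene, which allowed a member to be set beside its namesake. How reads shared by such genes were counted is not given in the sources used here. The second SLC30A1 gene (ENSDARG00000005463) stood at 64.8 ± 12.97 CPM in control, 78.01 ± 11.3 CPM in depleted and 59.96 ± 6.48 CPM in recovering testes (SD, n = 4, 5 and 5). It was higher in depleted than in control testes on the log2 scale by 0.65 (edgeR adjusted p = 0.00332), where the member stood at 5.76% of control. The second RXFP2 gene (ENSDARG00000032820) likewise stood at 29.7 ± 4.89 CPM in control, 51.3 ± 31.8 CPM in depleted and 28.8 ± 9.16 CPM in recovering testes. Its depleted mean CPM was 172.7% of control, and its log2 fold change on the scale of the fit was 1.19 (edgeR adjusted p = 0.0330).

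The second CAMKV gene (ENSDARG00000027963) held 27.4 ± 4.22, 28.8 ± 16.5 and 25.7 ± 3.52 CPM in control, depleted and recovering testes and the second TDG gene (ENSDARG00000013004) 20.5 ± 2.29, 13.9 ± 3.32 and 22.6 ± 4.45 CPM. Neither passed the test in depleted against control testes (edgeR adjusted p = 0.290 and 0.350). The second GFUS gene (ENSDARG00000039666) stood at 41.2% of its control mean CPM in depleted and at 98.5% in recovering testes. On the log2 scale of the fit it fell in depleted testes by 0.91 (edgeR adjusted p = 0.00198). The namesake of PKHD1L1 (ENSDARG00000091116) came closest to its member, with depleted and recovering levels of 13.1% and 53.9% of control, where the member (ENSDARG00000040004) stood at 5.79% and 40.8%. In recovering testes 9 of the 10 namesakes stood above 50% of control, several of them without having been lost, and the MTCL3 namesake was at 0 counts in every library. The namesakes of GRM8 and NAPB were near the floor, with control means of 0.779 and 0.307 CPM, and were not tested. Of the 2093 lost genes, 2021 also stood at or above 50%. The share over all genes, lost or not, is not given here, so the count says nothing particular about namesakes. Whether the members of a pair differed in their response was not tested.

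**Figure D5:**
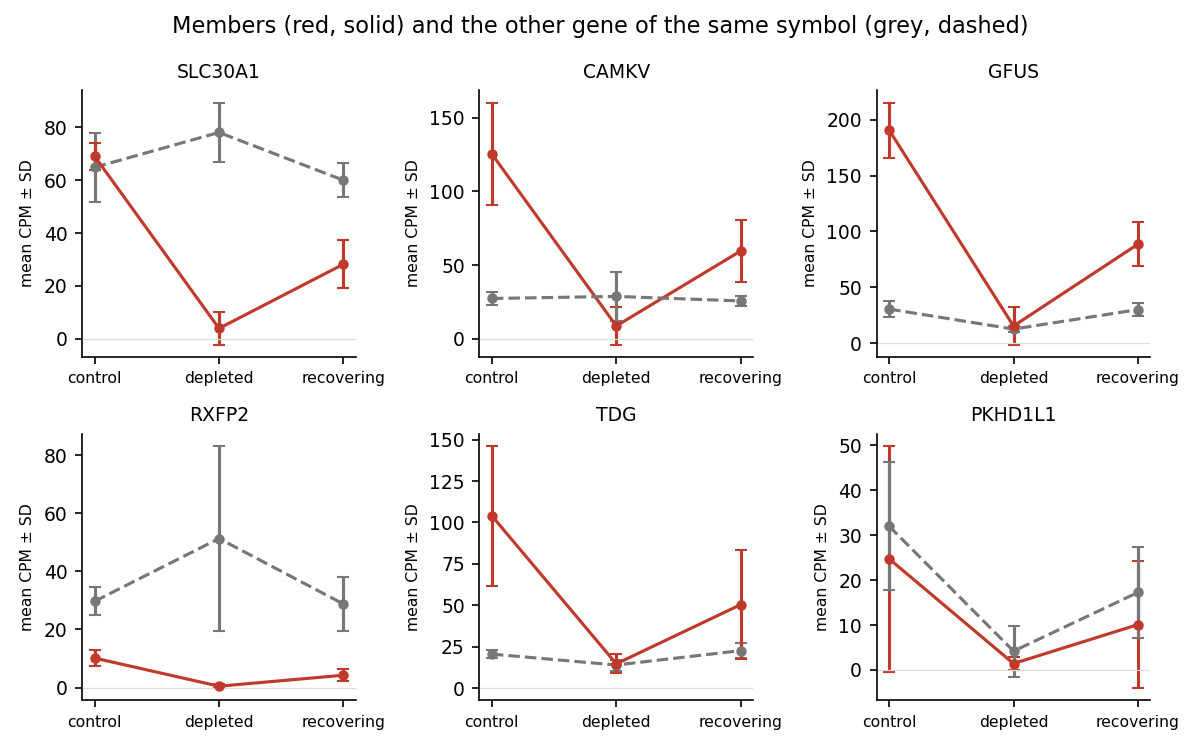
Points and whiskers are mean CPM and SD in control, depleted and recovering testes for 6 members (red, solid) and the second gene of the same symbol (grey, dashed). The members are lowest in depleted testes and intermediate in recovering testes, whereas the second SLC30A1, RXFP2, CAMKV and TDG genes hold 67.9% to 173% of their control level in depleted testes.

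Members did not lie side by side in the genome as far as their symbols could be placed. In the RefSeq gene order of the assembly GRCz12tu, 42 members were found by a symbol of their own, on 22 chromosomes. Of these, 0 pairs lay within 10 protein-coding genes of each other. The other members were not placed, and the number of such pairs among randomly drawn genes was not tested.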

How the data were processed

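RNA sequencing counts were analysed for 14 of 15 labelled samples; groups and replicate numbers came from the sample titles. The values the authors deposited are whole-number counts per Ensembl gene, 1 table per sample. FastQC 0.10.1, TopHat2 2.0.5, SAMtools 0.1.18, HTSeq, DESeq and the build Zv9 are named in the submitters' processing notes. The annotation release and the treatment of reads shared between genes are not given in the sources used here.

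CPM was computed from each library's total. edgeR 4.0.16 (R 4.3.3) fitted 21277 genes kept by filterByExpr, which hold 99.8% of all counts, with TMM scaling, group as the factor and 1 dispersion per gene over all 14 samples. Calls use the quasi-likelihood F-test with Benjamini-Hochberg adjustment under 0.05. DESeq2 1.42.0 was an alternative. Median depth was 9307359 counts, and 3 counts equal 0.0617 to 0.369 CPM; such floors cover counting error only. The 26 same-group pairs differed by 13.9 to 111 in chi-square per degree of freedom, so no library was a duplicate. The labels give no fish, batch or date. A symbol was found for 21948 of 33752 identifiers; lists were matched on symbol alone, and listed genes with another spelling were not used.

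The members and lists were chosen with earlier results of these data known. Genes were named by rule: the 8 largest losses, the 6 lowest and 6 highest recoveries, the 5 highest control levels, the 3 nearest genes outside the limit and all members on fixed lists, among genes with a symbol (1 is printed by its identifier). Further members were named after their values were seen.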

Additional observations from a re-analysis of the deposited data

Results flagged for a closer look

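Within single groups, 87 sets of values were examined for a library far from the rest, 1 set for each named gene and group. Such a library was found in 8 sets. A rate of 1 in 20 would give about 4.35, but that rate holds for independent sets of normally distributed values. These sets share libraries and most of their genes were chosen by group means, so no comparison with chance is drawn. RIBC1 stood at 0.320 CPM (3 counts) in recovering replicate 4 against 110.2 CPM in the next library, and at 155 CPM in control replicate 5 against 209.6 CPM. TBX20 stood at 53.6 CPM in control replicate 5 against 37.1 CPM. In control replicate 1, si:ch73-7i4.1 reached 65.5 CPM against 11.3 CPM in the next control. Recovering replicate 2 held si:ch211-149a19.3 at 10.9 CPM against 1.81 CPM in the next library. Depleted replicate 2 stood above its group for 3 genes, with SLC30A1 at 14.5 CPM against 4.06 CPM, ODAD4 at 28.1 CPM against 5.66 CPM and si:ch1073-340i21.1 at 8.89 CPM against 2.22 CPM.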

How the results depend on the processing

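The number of genes meeting the rule moved most with its settings. It was 72 as reported, 47 with TMM-scaled CPM (all 47 among the 72), 126 with group medians in place of means (56 shared), 21 under a limit of 0.4 and 200 under a limit of 0.6 of the control level (the rule keeps the 200 largest losses of 251 genes; 61 shared), and 60 to 97 with 1 library left out. The median recovering level of the members was 44.9%, was 33.5% and 54.0% under the limits of 0.4 and 0.6, and was 43.4% to 45.4% with 1 library left out. The median log2 ratio of depleted to control was -3.44 to -2.83 with 1 library left out. These lists were chosen anew under the same limits, which hold both medians in place, so the ranges show no stability. In recovering libraries the choice did not use, the medians were 38.6% to 60.1% of control means that it did use. In recovering against control testes 1 member was called lower by edgeR with all samples; the number was 30 with only the groups compared, 13 with DESeq2, 0 without a filter on low counts, 0 with the replicate number as a block and 0 to 2 with 1 library left out. Over all genes, 7 were called lower there; 387 with only the groups compared, 333 with DESeq2, 13 with RLE size factors, 0 with the replicate block, and 0 to 27 with 1 library left out. At an unadjusted p under 0.05, edgeR placed 26 members and 927 of all genes lower with all samples, 26 and 819 without a filter, 32 and 925 with the block, and 20 to 27 members with 1 library left out. The 2 members and 27 genes came without recovering replicate 3. In depleted against control testes 62 to 69 members, and 5995 to 7345 of all genes, were called lower with 1 library left out. In recovering against depleted testes 30 to 57 members, and 5002 to 7026 of all genes, were called higher. The replicate block called 68 members lower in depleted against control testes and 49 higher in recovering against depleted testes, against 66 and 45. Deviations of same-numbered samples of different groups correlated at -0.159 to 0.241 over 13 pairs. Those of samples with different numbers correlated at -0.4 to 0.355 over 52 pairs. The first range lay within the second, which shows no pairing by number but cannot exclude shared handling with a small effect. For single named members, 309 of 312 alternative values of the recovering to control ratio moved by less than the replicate spread. Larger moves were those of endou2 to -3.02 with a pseudocount of 2 and si:ch73-7i4.1 to -0.96 with medians and -0.54 without control replicate 1. Most alternatives left out 1 library, which can hardly move a ratio of means by more than the spread among replicates. Moves under that spread included RIBC1 from -1.03 to -0.72 without recovering replicate 4 and cacna1ha from -1.15 to -0.85 without recovering replicate 5. Both genes then no longer met the rule, so a move under the spread could still change membership. Total counts in place of TMM moved the log2 change of the median gene in depleted against control testes from 0.03 to -0.34, and that of the members from -2.89 to -3.22. The causes of these shifts were not tested. Depth limits members near 10 CPM most, since 3 counts in the shallowest depleted library are 0.369 CPM.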
